A study of Mus musculus with 122 samples.

Results

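The 33 genes described here belong to the p53 pathway: Trp53 itself, its relative Trp73 and 31 genes known as p53 targets. They were listed by name as genes of this pathway, with earlier results of these data known. All 33 were among the 52459 genes of the RNA-seq table. RNA-seq had been performed on polyadenylated RNA of 4 mouse embryonic stem cell lines, and the question put to these genes was whether losing CTCF, gaining CTCFL or gaining a chimera of the 2 proteins raised them.

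All lines derive from E14Tg2a cells (129/Ola, XY), cultured without feeders. The growth protocol gives 1 medium for every sample, with serum, LIF and inhibitors of GSK3 and MEK, but the names of the LCL and CLC libraries carry a mark for these inhibitors that those of the CTCFL and CTCF lines lack, and a difference of medium could not be told apart from a difference of line. All carry a degron and eGFP on both alleles of Ctcf together with Tir1, so that auxin (IAA, 500 µM) degrades the endogenous CTCF protein. Each line carries at the Tigre locus a different transgene with a Flag tag and mRuby2, which doxycycline (Dox, 1 µg/ml) induces. The CTCFL line expresses CTCFL, the paralog of CTCF that is normally restricted to male germ cells, and the CTCF line expresses CTCF. LCL is a chimera with the N and C terminals of CTCFL around the zinc fingers of CTCF, and CLC is the converse. Each line is 1 clone, so that what a line shows cannot be told apart from what its clone shows. Cells were untreated (U), treated with IAA (I), treated with Dox (D) or treated with both (ID). The sample descriptions give 24 h of treatment and the treatment protocol gives 2 days. Of the CTCFL line there were 3 libraries of U, of I and of D and 2 of ID, of the CTCF line 2 of U and 3 of each other condition, and of LCL and CLC 2 of every condition. Below, U versus I is called the loss of CTCF and U versus D the gain of the transgene beside endogenous CTCF. I versus ID is called the gain of the transgene in cells without endogenous CTCF, where the CTCF line has transgenic CTCF. No line without the degron or without a transgene was treated, so that effects of IAA or Dox themselves cannot be told apart from these. The control cells carry the degron too. Nothing states whether libraries of a group came from separate cultures, so that p-values measure the spread between these libraries, which may be technical.

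The p53 protein is a transcription factor that accumulates and becomes active when DNA is damaged or growth is deregulated. Its control is mostly at the level of protein stability: MDM2, itself the product of a target gene, marks p53 for destruction, and this loop keeps p53 low in undamaged cells. The level of Trp53 mRNA is therefore a poor guide to p53 activity, and the levels of its targets are the usual readout. The targets fall into groups that feed back on p53, arrest the cell cycle, promote apoptosis, restrain growth and metabolism, or repair DNA. Pluripotent cells are known for a short cell cycle with a weak arrest at its first checkpoint, and p53 there is also known to repress pluripotency genes. No protein or activity of p53 was measured in these data.

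Sequences are shown first for the places where both kinds of factor could be looked for in the genome. Within FLAG ChIP-seq sites at member promoters, exact matches to the CTCF core consensus, searched on both strands, stood at Trp53, Cdkn1a and Bbc3. The windows below run 45 bases to each side of the match, which is in capitals, and are read from GRCm38 on the strand of the match. The window near Trp53 lies in an intron of its neighbor Wrap53, and the others lie in introns of Cdkn1a and Bbc3.
Trp53, chr11:69579445-69579546, plus strand: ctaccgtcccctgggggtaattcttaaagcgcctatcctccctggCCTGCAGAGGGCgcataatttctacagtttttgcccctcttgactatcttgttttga
Cdkn1a, chr17:29095591-29095692, minus strand: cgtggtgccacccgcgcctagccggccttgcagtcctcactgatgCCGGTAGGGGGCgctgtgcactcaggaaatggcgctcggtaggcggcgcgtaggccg
Bbc3, chr7:16310082-16310183, minus strand: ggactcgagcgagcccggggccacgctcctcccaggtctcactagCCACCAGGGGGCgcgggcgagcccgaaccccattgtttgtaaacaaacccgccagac

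The p53 half-site consensus was searched on both strands of promoters from RefSeq (GRCm38.p6), each from 250 bases before to 50 bases after a transcription start. Of the members, 25 had an entry, with 38 promoters, and the others (Trp53inp1, Zmat3, Pmaip1, Tnfrsf10b, Perp, Rrm2b, Xpc and Ddb2) had none. A half-site stood in 13 of the 38 promoters (34.2%), belonging to 12 genes, against 8.36% of 32851 promoters of the same length. The 4 windows below hold the half-sites of genes whose values are given in full or in every line below, in capitals, and lie outside exons.
Cdkn1a, chr17:29090861-29090960, plus strand: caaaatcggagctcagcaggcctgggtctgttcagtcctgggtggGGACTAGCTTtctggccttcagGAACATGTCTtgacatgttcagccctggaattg
Mdm2, chr10:117710890-117710989, minus strand: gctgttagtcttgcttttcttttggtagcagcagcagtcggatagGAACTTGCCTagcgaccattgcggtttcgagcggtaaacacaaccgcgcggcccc
Ccng1, chr11:40755417-40755516, minus strand: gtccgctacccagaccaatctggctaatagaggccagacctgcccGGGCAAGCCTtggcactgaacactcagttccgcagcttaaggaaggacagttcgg
Ddit4l, chr3:137623537-137623636, plus strand: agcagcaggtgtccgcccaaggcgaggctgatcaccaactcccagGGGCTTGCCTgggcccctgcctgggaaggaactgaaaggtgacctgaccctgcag
Plk2, Plk3, Btg2, Bbc3, Trp73, Phlda3 and Ak1 held no match in their RefSeq windows. A match is a description of the letters, not a bound site.

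Values are normalized read counts, which the authors obtained by scaling the counts of each library with its size factor. In the 36 libraries whose reads could be recovered, depth ranged from 6847072 to 49716771 reads, with CTCFL D replicate 3 the lowest. Ctcfl checked the labels of 3 lines. In the CTCFL line it was at 177 to 225 without Dox and at 5455 to 9398 with it, in LCL at most at 36.5 without Dox and at least at 384 with it, and in CLC at most at 82.4 without Dox and at least at 1791 with it. In the CTCF line, Ctcf was not higher with Dox: it was at 4691 and 4712 in U and at 3550 to 3850 in D. The table does not separate transgene and endogenous reads, and IAA acts on the protein, so that the RNA checks neither the Dox labels of the CTCF line nor the IAA labels. Of the pluripotency markers, Pou5f1 was at 12975 or more and Nanog at 18075 or more in every library. Others were lower, with Utf1 at 363, Fgf4 at 1580 and Klf2 at 1598 in their lowest libraries. Of markers of other cell types, Fgf5 was at 7.91 at most and T at 41.1 at most, whereas Gata4 was at 275 or more and Nes at 1509 or more. LCL and CLC differed from the other lines in U at many genes, and the line, the clone, the medium and any batch of preparation cannot be told apart there.

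With CTCF loss, between 15 and 22 members rose in each of the 4 lines, and at most 1 fell. A gene was called at an adjusted p below 0.01 (limma), and a change past 1 on the log2 scale was counted as well. In the CTCFL line 15 of 33 members rose in U versus I, against 14.3% of all genes tested, and 1 fell, against 16%. In the CTCF line 16 of 33 rose, against 14.8% of all genes, and 0 fell, against 16.1%. In LCL 16 of 32 members tested rose, against 14.1%, and 1 fell, against 14.3%. In CLC 22 of 32 rose, against 12.7%, and 0 fell, against 14.5%. The median log2 fold change over the members was 0.29, 0.35, 0.36 and 0.70 in the CTCFL, CTCF, LCL and CLC lines, and that of all genes lay between 0.0047 and 0.04. Without CLC U replicate 2, the count of called members in CLC was 14.

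With the transgene gained beside CTCF, the count of members that rose was highest in the CTCFL line, where more genes in all were called than in the other lines. There 21 of 33 members rose, against 12.4% of all genes, and 1, Trp53, fell, against 12.6%. In the CTCF line 6 of 33 rose, against 1.47% of all genes, and 1 fell, against 3.23%. In LCL 7 of 32 rose, against 5.15%, and 1 fell, against 6.2%. In CLC 2 of 32 rose, against 0.73%, and 0 fell, against 0.887%. The members' median was 0.47, 0.23, 0.12 and 0.23 in these lines, and that of all genes lay between -0.02 and 0.02. The small counts are not firm: that of the CTCF line was 1, 2, 4 and 3 without U replicate 1, U replicate 2, D replicate 1 and D replicate 3 and 3 with the 2 groups alone. That of LCL was 4 without U replicate 1, D replicate 1 or D replicate 2, and that of CLC was 0 without any 1 of its 4 libraries, 16 with the 2 groups alone, 12 with all lines in 1 fit and 11 in DESeq2.

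In cells without endogenous CTCF, the transgenes split. In I versus ID, 11 of 33 members rose in the CTCFL line, against 13.2% of all genes, and 2 fell, against 16.6%. Of the members, 5 of 33 rose in the CTCF line, against 10.1%, and 2 fell, against 15.5%, so that the share that rose was near that of all genes. The 2 that fell with transgenic CTCF, Apaf1 and Polk, were not among the 16 that rose in U versus I of that line. In LCL 12 of 32 rose, against 16.2%, and 5 fell, against 16.8%. In CLC 0 of 32 rose, against 3.68%, and 8 fell, against 1.81%. The medians were 0.16, 0.06, 0.16 and -0.29. The same I libraries serve in U versus I and in I versus ID, so that a high value there enters both with opposite sign, and U versus I and U versus D share the U libraries. The count of called members in the CTCFL line was 13, and 8, 6 and 8 without I replicate 1, ID replicate 1 and ID replicate 2 and 6 in edgeR and in DESeq2. That of the CTCF line was 7, and 4 without ID replicate 3. That of LCL was 17, and 10 without I replicate 1. That of CLC was 8, and 2 and 3 without ID replicate 1 and ID replicate 2, 14 with all lines in 1 fit and 0 with the 2 groups alone.

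**Figure D1:**
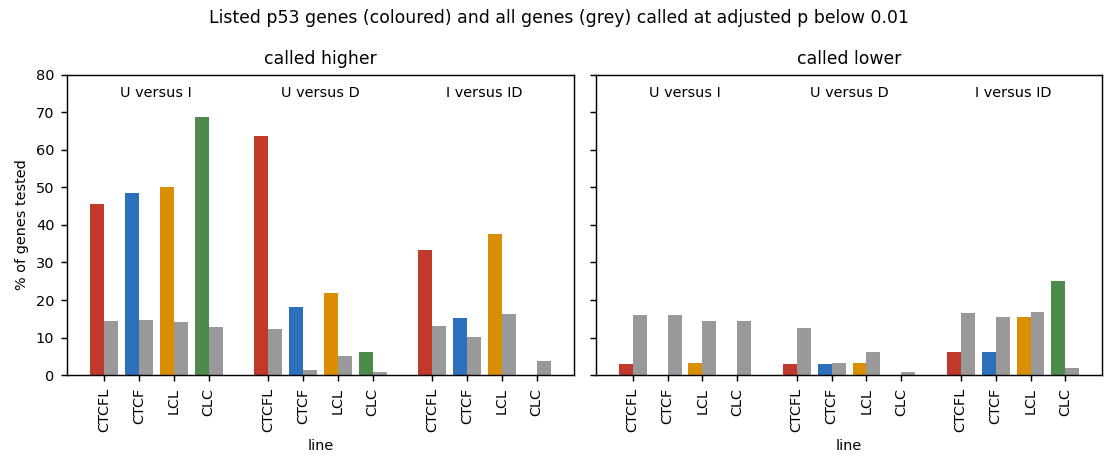
Percentage of the genes tested that were called higher (left) or lower (right) at an adjusted p below 0.01 from limma, for the listed p53 genes (coloured bars, 1 color per line) and for all genes tested (grey bars), in U versus I, U versus D and I versus ID. The coloured bar exceeds the grey bar among higher calls in 11 of the 12 comparisons, with CLC in I versus ID the exception, where 25% of members were called lower.

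**Figure D2:**
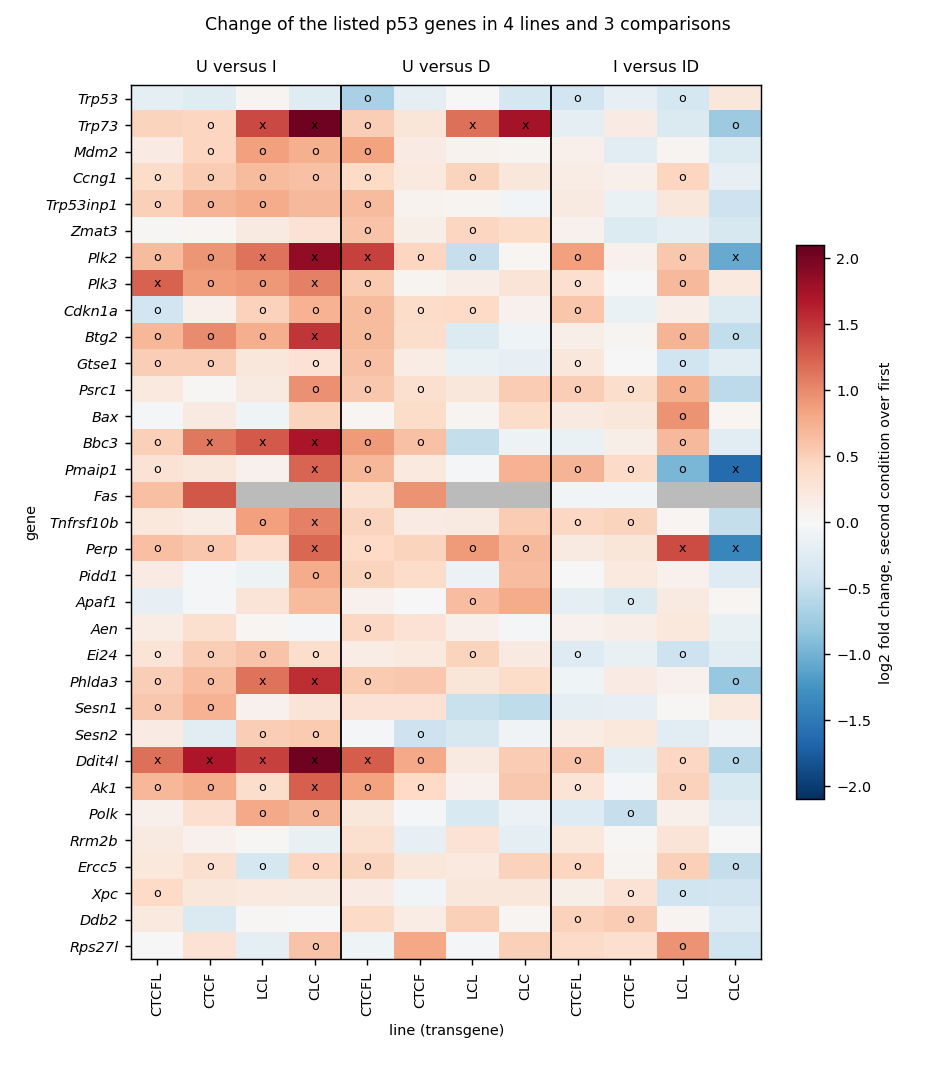
Log2 fold change of each listed gene (rows) in each line and comparison (columns), red for higher and blue for lower in the second condition. Circles mark an adjusted p below 0.01 from limma, crosses mark a change past 1 on the log2 scale as well, and grey marks Fas in LCL and CLC, which was too low to be tested. The left block is mostly red in all 4 lines, and the last column, CLC in I versus ID, is mostly blue.

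Changes past 1 on the log2 scale were fewer. In U versus I they numbered 2, 2, 5 and 11 in the CTCFL, CTCF, LCL and CLC lines, against 9.58%, 10.9%, 9.58% and 12.8% of all genes. In U versus D they numbered 2, 0, 1 and 1, against 5.9%, 0.455%, 1.91% and 0.6%. In I versus ID they numbered 0, 0, 1 and 3, against 7.83%, 5.06%, 8.49% and 1.95%. In the CTCFL and CTCF lines the members' share past this fold was thus below that of all genes in U versus I, and the members' changes there were many and small.

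Trp53 did not rise with its targets. The CTCFL libraries stood at 5835, 5872 and 5033 in U, at 4673, 5045 and 4821 in I, at 3587, 3282 and 3509 in D and at 3564 and 3786 in ID. All D libraries lay below all U libraries, by -0.69 on the log2 scale (standard error 0.07, adjusted p = 1.63e-07, limma), and I versus ID gave -0.40 (standard error 0.08, adjusted p = 3.39e-04). In the CTCF line it was at 6439 and 6678 in U, 5173, 5604 and 5697 in I, 5745, 6133 and 5158 in D, and 4727, 4929 and 4934 in ID. All its other libraries lay below U, but U versus I (-0.26, adjusted p = 0.018) and U versus D (-0.21, adjusted p = 0.0819) did not pass the test. The change with Dox differed between the 2 lines by -0.48 (standard error 0.11, adjusted p = 0.00234).

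Trp53 stood at 14515 and 17917 in U of LCL and at 14816 and 14649 in U of CLC, above every library of the CTCFL and CTCF lines. Of all genes with a mean of at least 10, 21.1% differed from the CTCF line in U of LCL by at least as much as Trp53, and 26.4% in CLC. In LCL it was at 16468 and 17146 in I, 16299 and 16154 in D, and 12128 and 13946 in ID, and only I versus ID passed the test (-0.37, standard error 0.10, adjusted p = 0.00545), a call lost without 3 of its 4 libraries in turn. In CLC it was at 11983 and 12771 in I, 11183 and 11670 in D, and 14757 and 14432 in ID, and no comparison passed. The Trp53 count is uncertain, since a processed pseudogene shares its sequence and Wrap53 overlaps its start on the other strand, and nothing states whether the counting used strand.

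Mdm2, whose product ubiquitinates p53, rose with CTCF loss in 3 lines and with CTCFL gain. Cells of the CTCFL line had it at 7708, 8405 and 7930 in U, 9370, 8888 and 8881 in I, 13732, 14907 and 14776 in D, and 9645 and 9731 in ID. The D libraries lay far above the others, 0.85 above U on the log2 scale (standard error 0.06, adjusted p = 1.04e-09), whereas I versus ID gave 0.10 (adjusted p = 0.260). The CTCF libraries stood at 5467 and 5986 in U, 8586, 7347 and 7672 in I, 6465, 6667 and 6250 in D, and 6976, 6664 and 6621 in ID. U versus I gave 0.46 there (adjusted p = 3.77e-04).

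Mdm2 in LCL was at 5097 and 5008 in U, 9275 and 8990 in I, 5441 and 5209 in D, and 10227 and 8902 in ID. The CLC libraries stood at 6596 and 6369 in U, 11330 and 10381 in I, 6447 and 7020 in D, and 8654 and 9132 in ID. In both chimera lines the libraries with IAA thus lay above all libraries without it, with U versus I at 0.85 in LCL (standard error 0.09, adjusted p = 2.09e-07) and 0.74 in CLC (standard error 0.09, adjusted p = 2.68e-04). U versus D gave 0.08 and 0.05 in these lines and did not pass the test.

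Plk2, a polo-like kinase induced by stress, responded most to CTCFL among the feedback members. In the CTCFL line it was at 4756, 5029 and 5093 in U, 8529, 7424 and 7649 in I, 12699, 14069 and 13480 in D, and 14714 and 13879 in ID. U versus D gave 1.43 (standard error 0.07, adjusted p = 1.35e-12), U versus I 0.66 and I versus ID 0.86, and each passed the test. Cells of the CTCF line had it at 2880 and 2949 in U, 5934, 5420 and 5266 in I, 3951, 4161 and 3782 in D, and 5869, 5906 and 5973 in ID. Both I and D lay above U there, and ID overlapped I.

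In LCL, Plk2 was at 1649 and 1448 in U, 3504 and 3330 in I, 1125 and 1097 in D, and 5153 and 4928 in ID. It fell with Dox beside CTCF (-0.48, adjusted p = 0.0011), a call lost without 3 of the 4 libraries in turn, and rose with Dox without CTCF (0.56, adjusted p = 6.49e-05). All libraries of these groups were apart. CLC cells had it at 1569 and 1662 in U, 6001 and 5780 in I, 1643 and 1684 in D, and 2705 and 2986 in ID. U versus I gave 1.87 (standard error 0.09, adjusted p = 5.15e-06) and I versus ID -1.05 (standard error 0.09, adjusted p = 4.69e-04), and this fall did not pass with the 2 groups alone.

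Plk3, a related kinase, rose in U versus I of all 4 lines. The CTCFL libraries stood at 720, 629 and 625 in U and at 1602, 1629 and 1425 in I, which is 1.24 on the log2 scale (standard error 0.09, adjusted p = 3.86e-10), and it was at 902, 1018 and 985 in D and at 1937 and 2007 in ID. In the CTCF line it was at 611 and 702 in U, at 1092, 1251 and 1293 in I, at 744, 670.3 and 626 in D and at 1147, 1316 and 1185 in ID. In LCL it was at 367 and 354 in U, 642 and 726 in I, 412 and 383 in D, and 992 and 1202 in ID. The CLC libraries were at 399 and 354 in U and at 750 and 826 in I, a change of 1.07 (adjusted p = 1.75e-04), and it was at 464 and 446 in D and at 946 and 876 in ID. In every line the libraries with IAA lay above all those without it.

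**Figure D3:**
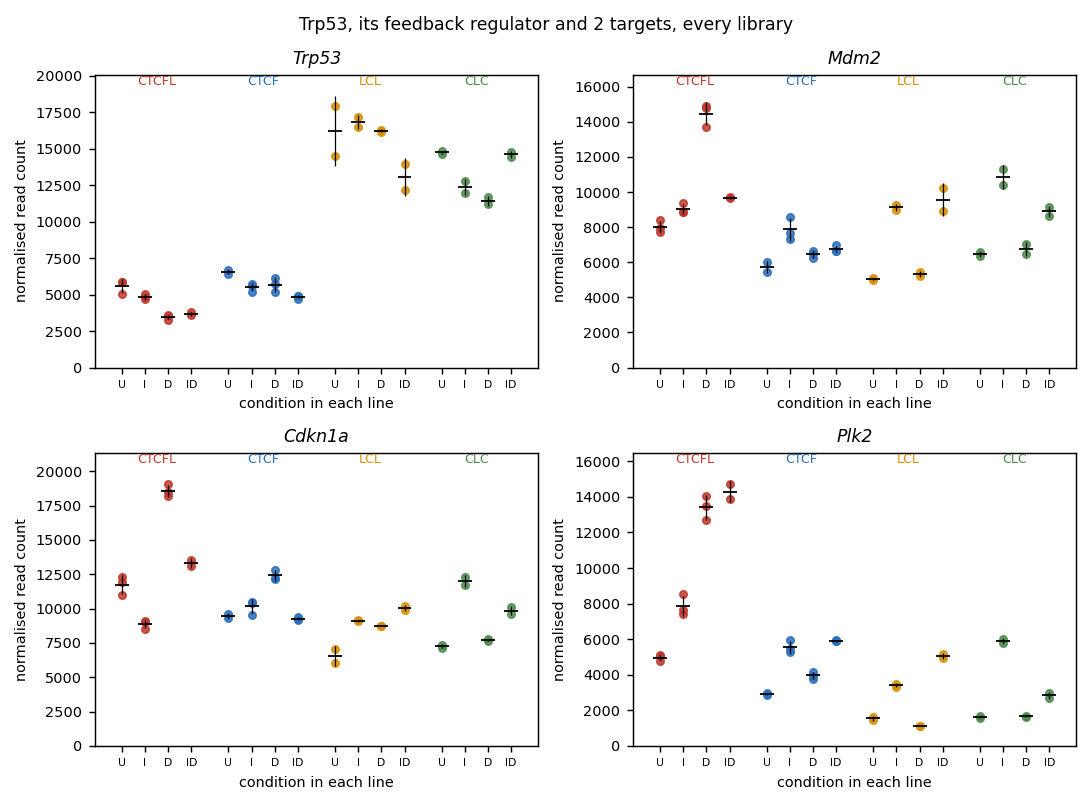
Normalized read count of Trp53, Mdm2, Cdkn1a and Plk2 in every library (points), by line and condition, with the group mean (horizontal bar) and SD (vertical line), on linear axes from 0. Trp53 sits at 11183 or more in all LCL and CLC libraries, and Cdkn1a in the CTCFL line is lowest in I and highest in D.

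Trp73, which encodes the p53 relative p73, stood out in the chimera lines. In CLC it was at 177 and 157 in U, 728 and 658 in I, 581 and 543 in D, and 407 and 407 in ID. U versus I gave 2.05 (standard error 0.12, adjusted p = 1.40e-05), U versus D 1.75 (standard error 0.12, adjusted p = 8.42e-04) and I versus ID -0.77 (adjusted p = 0.00535). The U versus D call was lost without any 1 of the 4 libraries, while its value stayed between 1.66 and 1.84. In LCL it was at 107 and 107 in U, 271 and 294 in I, 224 and 258 in D, and 207 and 251 in ID, with 1.39 in U versus I (adjusted p = 4.25e-06) and 1.16 in U versus D (adjusted p = 1.44e-04).

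In the CTCFL line Trp73 was at 268, 281 and 248 in U, at 323, 380.2 and 409 in I, at 351, 399 and 393 in D, and at 364 and 280 in ID. The CTCF libraries stood at 184 and 210 in U, at 287, 260.1 and 266 in I, at 249, 205 and 254 in D and at 311, 312 and 294 in ID. Its changes in these lines were at most 0.52, that of U versus D in the CTCFL line, which was lost without 5 of its 6 libraries in turn. U versus I of the CTCF line gave 0.46, a call lost without any 1 of its 5 libraries and in 6 of 9 other fits.

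The other regulators moved less. Ccng1, which encodes the feedback protein cyclin G1, rose in U versus I of all lines, by 0.38 to 0.67, and in U versus D of the CTCFL line and LCL, by 0.41 and 0.47. Trp53inp1, whose product promotes the modification of p53, rose with CTCF loss in the CTCFL line, CTCF line and LCL, by 0.50 to 0.79, and in U versus D of the CTCFL line by 0.66. Zmat3, which encodes an RNA-binding protein, rose in U versus D of the CTCFL line by 0.60 and of LCL by 0.45 and passed the test in no U versus I.

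Cdkn1a, which encodes the cyclin-dependent kinase inhibitor p21 and is the best known p53 target, moved in opposite directions in different lines. Cells of the CTCFL line had it at 12309, 11925 and 10973 in U, 8503, 9000 and 9093 in I, 18175, 19054 and 18495 in D, and 13082 and 13554 in ID. No 2 of these groups overlapped: U versus I gave -0.40 (standard error 0.06, adjusted p = 1.61e-05), U versus D 0.66 (standard error 0.06, adjusted p = 3.61e-08) and I versus ID 0.59 (standard error 0.07, adjusted p = 6.11e-07). Cells of the CTCF line had it at 9602 and 9303 in U, 9516, 10500 and 10438 in I, 12248, 12148 and 12829 in D, and 9373, 9162 and 9236 in ID. I and U overlapped there, and U versus D gave 0.39 (adjusted p = 0.00412), a call lost with 4 of 5 libraries left out in turn.

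In LCL, Cdkn1a was at 6000 and 7050 in U, 9061 and 9147 in I, 8715 and 8705 in D, and 9866 and 10211 in ID. The CLC libraries stood at 7162 and 7367 in U, 11715 and 12325 in I, 7644 and 7757 in D, and 10085 and 9596 in ID. CTCF loss thus gave 0.49 in LCL (adjusted p = 2.08e-04) and 0.73 in CLC (adjusted p = 1.65e-04). The response to IAA exceeded that of the CTCFL line by 0.89 in LCL (standard error 0.09, adjusted p = 7.66e-08), 1.13 in CLC (standard error 0.09, adjusted p = 6.59e-10) and 0.51 in the CTCF line (standard error 0.09, adjusted p = 6.00e-04).

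Btg2, an antiproliferative gene, rose in U versus I of every line. It was at 4668, 4714 and 4762 in U and at 7927, 7671 and 7334 in I of the CTCFL line, at 2748 and 3309 in U and 6354, 5830 and 5825 in I of the CTCF line, at 1682 and 1757 in U and 2901 and 2948 in I of LCL, and at 1826 and 1822 in U and 5062 and 5305 in I of CLC. The log2 fold changes were 0.70, 0.99, 0.77 and 1.51, with groups apart in each. With Dox alone it was at 7352, 7649 and 7319 in the CTCFL line, at 3772, 3959 and 3977 in the CTCF line, at 1473 and 1360 in LCL and at 1757 and 1665 in CLC, so that D lay above U in the first 2 lines and below U in the others, and only the CTCFL line passed the test (0.66). In ID it was at 8323 and 8232 in the CTCFL line, at 6468, 6122 and 6116 in the CTCF line, at 4895 and 4706 in LCL and at 3644 and 3639 in CLC. I versus ID gave 0.71 in LCL and -0.51 in CLC, both called.

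Gtse1 and Psrc1 encode proteins of the mitotic apparatus, and Gtse1 also acts on p53. Gtse1 rose in U versus I of the CTCFL, CTCF and CLC lines, by 0.52, 0.52 and 0.31, and in U versus D of the CTCFL line by 0.61. Psrc1 rose in U versus D of the CTCFL line and the CTCF line, by 0.57 and 0.34, in I versus ID of the CTCFL, CTCF and LCL lines, by 0.36 to 0.74, and in U versus I of CLC alone among the lines tested, by 0.95. The call of Psrc1 in U versus D of the CTCF line was lost without any 1 of its 5 libraries and in 3 of 9 other fits, and that of Gtse1 in CLC without 3 of 4. The 4 arrest and growth members were Cdkn1a, Btg2, Gtse1 and Psrc1. In U versus I 2, 2, 2 and 4 of them rose in the CTCFL, CTCF, LCL and CLC lines. Of all genes 14.3%, 14.8%, 14.1% and 12.7% rose there. In U versus D 4, 2, 1 and 0 of these members rose, against 12.4%, 1.47%, 5.15% and 0.73%. In I versus ID 3, 1, 2 and 0 of them rose, against 13.2%, 10.1%, 16.2% and 3.68%. The falls were 1 in U versus I of the CTCFL line, that of Cdkn1a, against 16% of all genes, and 1 each in 2 chimera comparisons. These were those of Gtse1 in I versus ID of LCL, against 16.8%, and of Btg2 in I versus ID of CLC, against 1.81%.

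Among death genes, Bbc3, which encodes the BH3 protein PUMA, rose in U versus I of every line. In the CTCFL line it was at 545, 469 and 574 in U and at 693, 867 and 694 in I, in the CTCF line at 375 and 451 in U and at 850, 930 and 874 in I, in LCL at 260 and 329 in U and at 629 and 815 in I, and in CLC at 266 and 237 in U and at 800 and 858 in I. On the log2 scale the changes were 0.50, 1.10, 1.29 and 1.72, the last 3 with adjusted p of 6.97e-07, 3.71e-06 and 2.79e-05, and the first was lost in 4 of 10 other fits and without 3 of its 6 libraries in turn. In D it was at 1161, 1052 and 764 in the CTCFL line, 638, 651 and 606 in the CTCF line, 239 and 179 in LCL, and 250 and 219 in CLC. D lay above U in the CTCFL and CTCF lines (0.89 and 0.62, both called) and below U in LCL (-0.50, not called).

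In ID, Bbc3 was at 737 and 624 in the CTCFL line, 990, 941 and 946 in the CTCF line, 1055 and 1240 in LCL, and 694 and 722 in CLC. Its highest levels were thus those of LCL ID and of 2 CTCFL D libraries, and I versus ID was called in LCL alone of the lines (0.68).

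Pmaip1, which encodes the BH3 protein NOXA, moved with Dox in opposite directions in different lines without endogenous CTCF. The CTCFL libraries stood at 1146, 1295 and 1306 in U, 1484, 1484 and 1630 in I, 1904, 2162 and 2000.1 in D, and 2587 and 2449 in ID. No 2 of these groups overlapped, and I versus ID gave 0.72. In LCL it was at 418 and 406 in U, 468 and 415 in I, 379 and 428 in D, and 263 and 196 in ID, with -0.95 in I versus ID. CLC cells had it at 432 and 410 in U, 1070 and 897 in I, 599 and 809 in D, and 297 and 340 in ID, with 1.22 in U versus I (adjusted p = 5.63e-04) and -1.62 in I versus ID (standard error 0.16, adjusted p = 0.00113).

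Pmaip1 in the CTCF line was at 1079 and 1057 in U, at 1293, 1261 and 1235 in I, at 1373, 1226 and 1109 in D and at 1541, 1702 and 1757 in ID, and I versus ID gave 0.40. In cells with IAA, Pmaip1 was thus higher with Dox in the CTCFL and CTCF lines and lower with Dox in LCL and CLC. The difference between lines in I versus ID was not tested.

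**Figure D4:**
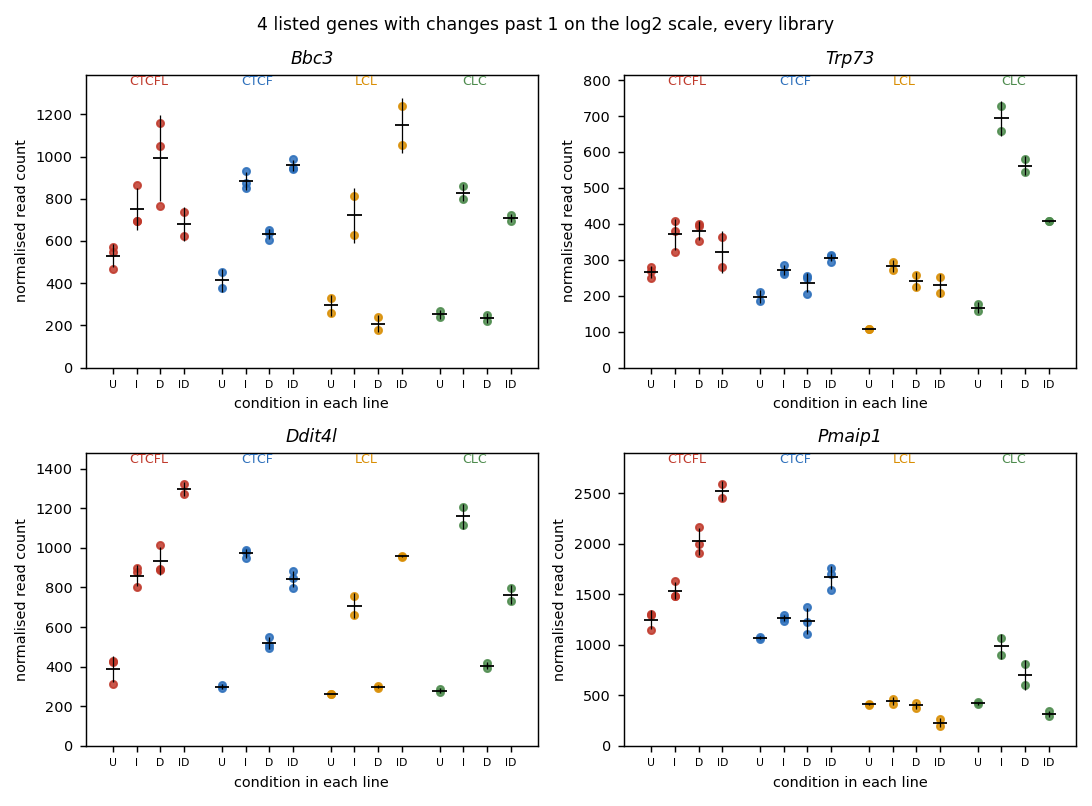
Normalized read count of Bbc3, Trp73, Ddit4l and Pmaip1 in every library (points), by line and condition, with the group mean (horizontal bar) and SD (vertical line), on linear axes from 0. Pmaip1 in ID sits above I in the CTCFL and CTCF lines and below I in LCL and CLC, and Trp73 is highest in CLC I.

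Perp, which encodes a membrane protein of p53-dependent apoptosis and of cell junctions, also went opposite ways. In LCL it was at 404 and 328 in U, 508 and 428 in I, 635 and 716 in D, and 1191 and 1226 in ID, with 1.37 in I versus ID (standard error 0.13, adjusted p = 1.20e-07). In CLC it was at 490 and 482 in U, 1097 and 1158 in I, 796 and 761 in D, and 423 and 447 in ID, with 1.21 in U versus I (adjusted p = 4.74e-05) and -1.37 in I versus ID (adjusted p = 2.95e-04). The ID libraries of CLC lay below its U libraries. Cells of the CTCFL line had it at 875, 822 and 777 in U, 1114, 1363 and 1348 in I, 1005, 1154 and 1169 in D, and at 1491 and 1419 in ID, and in the CTCF line at 952 and 808 in U, at 1154, 1338 and 1422 in I, 1359.9, 1214 and 1073 in D, and 1532, 1523 and 1572 in ID.

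Tnfrsf10b, the receptor for the death ligand TRAIL, was at 1264 and 1318 in U, 2962 and 2434 in I, 1804 and 1922 in D, and 1869 and 1937 in ID of CLC, with 1.06 in U versus I (adjusted p = 1.36e-04). In LCL it was at 1267 and 1218 in U, 2313 and 2196 in I, 1376 and 1472 in D, and 2250 and 2381 in ID, with 0.86 in U versus I. In the CTCFL line it was at 1931, 1788 and 2079.7 in U, 2370.3, 2191 and 2220.1 in I, 2454, 2713 and 2869 in D, and at 3166 and 2971 in ID, and in the CTCF line at 1948 and 2151 in U, 2470.4, 2233 and 2150.1 in I, 2179.8, 2426 and 2349 in D, and 3276, 3119.6 and 3087 in ID. Its highest levels were those of ID in these last 2 lines, with I versus ID at 0.44 and 0.47.

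Phlda3, whose product restrains AKT, rose in U versus I of every line. It was at 2426, 1983 and 2124 in U and 3106, 3250 and 2926 in I of the CTCFL line, at 1357 and 1067 in U and 1399, 2128 and 2283 in I of the CTCF line, at 1518 and 1582 in U and 3321 and 3540 in I of LCL, and at 1692 and 1802 in U and 4733 and 5512 in I of CLC. The log2 fold changes were 0.51, 0.65, 1.15 and 1.55, of which the CTCF line's was lost in 4 of 9 other fits. In D it was at 3294, 3022 and 3179.9 in the CTCFL line, 1918, 1769 and 1672 in the CTCF line, at 1814 and 1864 in LCL and at 2206 and 2339 in CLC. In ID it was at 2977 and 2848 in the CTCFL line, at 1956, 2213 and 2262 in the CTCF line, at 3330 and 3999.8 in LCL and at 3016 and 2854 in CLC, where I versus ID gave -0.80.

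The remaining death members changed little or in few lines. Ei24, which encodes a membrane protein of the endoplasmic reticulum, rose in U versus I of all 4 lines, by 0.29 to 0.60. Bax, the pore-forming effector of mitochondrial apoptosis, was called in I versus ID of LCL alone of the 12 comparisons, by 0.94. Pidd1 rose in U versus D of the CTCFL line by 0.46 and in U versus I of CLC by 0.78, Aen in U versus D of the CTCFL line by 0.43, and Apaf1, the scaffold of the apoptosome, in U versus D of LCL by 0.64. Fas, the death receptor, had means of 37.8 and 14.5 in U of the CTCFL and CTCF lines and of 2.11 and 3.30 in U of LCL and CLC, and it passed the test nowhere.

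Ddit4l, whose product inhibits mTOR signalling, was past 1 on the log2 scale in U versus I of all 4 lines. In U versus I it went from 421, 428 and 314 to 900, 800 and 878 in the CTCFL line, from 307 and 291 to 980, 989 and 948 in the CTCF line, from 260 and 262 to 663 and 755 in LCL, and from 287 and 272 to 1204 and 1115 in CLC. The log2 fold changes were 1.16 (standard error 0.11, adjusted p = 4.44e-08), 1.70 (0.09, 9.30e-09), 1.44 (0.13, 3.36e-08) and 2.05 (0.11, 8.94e-06). With Dox alone it was at 895, 887 and 1015 in the CTCFL line (1.28, adjusted p = 2.41e-08), at 509, 493 and 551 in the CTCF line (0.79), at 294 and 304 in LCL and at 418 and 393 in CLC. In ID it was at 1321 and 1274, at 799, 883 and 846, at 955 and 960, and at 799 and 729 in the CTCFL, CTCF, LCL and CLC lines.

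Ak1, the cytosolic adenylate kinase, rose in U versus I of all lines. It went from 1480, 1361 and 1536 to 2296, 2290 and 2486 in the CTCFL line, from 1224 and 1353 to 2154, 2205 and 2281 in the CTCF line, from 2147 and 2019 to 2677 and 2673 in LCL, and from 2007 and 1892 to 4402 and 4874 in CLC, where the change was 1.25 (adjusted p = 2.84e-05). In D it was at 2557, 2584 and 2730 in the CTCFL line (0.85), at 1602, 1842 and 1739 in the CTCF line (0.42), at 2132 and 2292 in LCL and at 2900 and 2884 in CLC. In ID it was at 2681 and 3082, at 2071, 2167 and 2239.8, at 3633 and 3830, and at 3892 and 3534 in these lines. The sestrins, stress proteins that restrain mTORC1, differed by line: Sesn1 rose with CTCF loss in the CTCFL and CTCF lines, by 0.57 and 0.72, and Sesn2 in LCL and CLC, by 0.52 and 0.56. Sesn2 fell in U versus D of the CTCF line, by 0.43, a call lost without 4 of its 5 libraries in turn.

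Of 6 repair members (Polk, Rrm2b, Ercc5, Xpc, Ddb2 and the ribosomal protein paralog Rps27l), 1, 1 and 1 rose in U versus I of the CTCFL, CTCF and LCL lines, near the 14.3%, 14.8% and 14.1% of all genes, and 3 rose in CLC, against 12.7%. Polk, a translesion polymerase, rose in LCL and CLC, by 0.79 and 0.72. The calls of Polk, Ercc5 and Rps27l in CLC were lost in 3, 2 and 5 of 9 other fits. Ercc5, a nuclease of nucleotide excision repair, rose in U versus I of the CTCF line and CLC, by 0.34 and 0.44, and fell in LCL by 0.37. Ddb2 and Xpc, which recognize damage, were not called together in any comparison but I versus ID of the CTCF line, where Ddb2 rose by 0.54 and Xpc by 0.31. Rrm2b, a subunit of ribonucleotide reductase, passed the test nowhere.

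Across lines, 9 of the 32 members tested in each rose in U versus I in all 4, against 4.41% of all genes: Ccng1, Plk2, Plk3, Btg2, Bbc3, Ei24, Phlda3, Ddit4l and Ak1. Of these, 4 (Plk2, Plk3, Btg2 and Ddit4l) kept every call with each library left out, whereas Ccng1 and Ei24 lost theirs in CLC, Ak1 in LCL, Bbc3 in the CTCFL line and Phlda3 in the CTCF line without some libraries. Trp73, Mdm2, Trp53inp1, Gtse1 and Perp rose in 3 lines. Trp53, Zmat3, Bax, Apaf1, Aen, Rrm2b and Ddb2 rose in none, nor did Fas, which was tested in the CTCFL and CTCF lines only. The shares of all genes for these were not computed. In U versus D no member rose in all 4 lines, and Trp73, Cdkn1a and Perp rose in 3, against 0.465% of all genes called in at least 3. The CLC calls of Trp73 and Perp (0.68) were lost without any 1 of the 4 libraries, and those of Cdkn1a without 4 of 5 in the CTCF line and 3 of 4 in LCL. In I versus ID only Psrc1 rose in 3 lines, against 2.42% of all genes.

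Whether the lines differed in their response was tested directly. For CTCF loss, the change was higher in CLC than in the CTCFL line for 14 of 33 members and lower for 0, against 10.5% of all genes that differed in either direction. Among the 14, Apaf1 was called in neither line (0.67 in CLC and -0.18 in the CTCFL line), and the difference of Perp was lost without 7 of 10 libraries in turn. Between LCL and the CTCFL line 7 members differed, against 8.51% of all genes, 6 of them with the higher change in LCL, and that of Bbc3 was lost without 6 of 10 libraries in turn. Between the CTCF and CTCFL lines 1 member, Cdkn1a, differed, against 1.63%; this count was 0 without CTCF U replicate 2 and 2 without CTCFL U replicate 3. The largest differences between CLC and the CTCFL line were those of Trp73 (1.57), Bbc3 (1.22), Plk2 (1.20), Cdkn1a (1.13) and Phlda3 (1.04). Neither condition holds Dox, and the line, the clone, the medium and any batch cannot be told apart here.

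For transgene gain beside CTCF, 7 of 33 members differed between the CTCFL and CTCF lines, against 11.9% of all genes, 6 of them with the higher change in the CTCFL line: Plk2 (0.99), Mdm2 (0.68), Plk3 (0.51), Gtse1 (0.45), Ak1 (0.43) and Sesn2 (0.41, where the CTCF line fell and the CTCFL line was at -0.03). The differences of Plk3 and Sesn2 were each lost without 7 of 11 libraries in turn. The count was 4 without CTCF U replicate 2. In LCL 5 members differed from the CTCF line, against 3.58%, of which Bbc3 (-1.12), Plk2 (-0.92), Sesn1 (-0.77) and Btg2 (-0.65) were lower in their response and Trp73 (0.90) higher; the count was 3 without LCL U replicate 2 or D replicate 2. In CLC 4 differed, against 2.74%, with Trp73 (1.49) and Apaf1 (0.79) higher and Sesn1 (-0.85) and Btg2 (-0.46) lower, and 2 did so without any 1 of the CLC libraries.

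Of 29 other known p53 targets (28 tested in CLC), more rose than fell in U versus I. There 11, 12, 13 and 14 rose in the CTCFL, CTCF, LCL and CLC lines, against 14.3%, 14.8%, 14.1% and 12.7% of all genes, and 3, 5, 3 and 2 fell, against 16%, 16.1%, 14.3% and 14.5%. Ptprv, a phosphatase gene induced by p53 in the mouse, rose by 1.26, 1.25 and 1.83 in the CTCFL, CTCF and CLC lines, and Steap3 by 1.45, 1.44 and 1.62 in the CTCF, LCL and CLC lines. Tap1, a peptide transporter of antigen presentation, rose by 1.05, 1.10, 1.68 and 3.62 in the 4 lines. Ephx1, an epoxide hydrolase, rose by 1.42 in CLC. In U versus D 8, 4, 9 and 2 rose in the 4 lines, against 12.4%, 1.47%, 5.15% and 0.73%, and 2, 1, 2 and 2 fell, against 12.6%, 3.23%, 6.2% and 0.887%. In I versus ID 7, 7, 9 and 1 rose, against 13.2%, 10.1%, 16.2% and 3.68%, and 3, 4, 3 and 4 fell, against 16.6%, 15.5%, 16.8% and 1.81%, so that the rises in CLC and the falls in the other lines were at or below the share of all genes. Tap1 rose by 1.22 and 1.97 in U versus D of LCL and CLC, and its I versus ID was -1.03 and -1.97 there.

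Cgref1, a cell growth regulator gene of the same list, went against most of it. It fell in U versus I of the CTCFL, CTCF and LCL lines, with log2 fold changes of -0.89, -1.67 and -0.92. With Dox it rose by 1.64, 1.75 and 1.38 in U versus D of the CTCFL, LCL and CLC lines and by 3.22, 1.51 and 1.44 in I versus ID of the CTCFL, CTCF and LCL lines, and it fell by 1.60 in I versus ID of CLC.

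In U versus I, genes that act on p53 or sense damage rose at a share below that of all genes in each line. Of 22 modifiers and cofactors tested, 1 rose there in each line. In the CTCFL, CTCF, LCL and CLC lines 14.3%, 14.8%, 14.1% and 12.7% of all genes rose. The modifiers that fell numbered 6, 2, 3 and 6, against 16%, 16.1%, 14.3% and 14.5% of all genes. With Dox beside CTCF 5, 1, 2 and 0 rose in these lines, against 12.4%, 1.47%, 5.15% and 0.73% of all genes. There 2, 0, 3 and 0 fell, against 12.6%, 3.23%, 6.2% and 0.887%. In I versus ID 5, 1, 7 and 0 rose, against 13.2%, 10.1%, 16.2% and 3.68%. In it 5, 6, 6 and 0 fell, against 16.6%, 15.5%, 16.8% and 1.81%. Of 20 sensors and kinases tested in the CTCFL and CTCF lines and 19 in LCL and CLC, 2, 0, 0 and 0 rose in U versus I and 7, 5, 9 and 8 fell, against the 16%, 16.1%, 14.3% and 14.5% of all genes that fell. With Dox beside CTCF 3, 0, 1 and 0 rose and 2, 2, 7 and 0 fell. In I versus ID 2, 5, 5 and 3 rose and 5, 3, 4 and 0 fell. The shares of all genes are those given for the modifiers. Nbn, a subunit of the MRN complex that senses double-strand breaks, fell by 1.37, 1.21, 1.33 and 1.22 in U versus I and rose by 1.24 and 1.73 in I versus ID of the CTCFL line and LCL. Prkdc, the DNA-dependent protein kinase, fell by 1.20, 1.18 and 1.38 in U versus I of the CTCF, LCL and CLC lines, and Atr, the replication stress kinase, by 1.16 in LCL and 1.47 in CLC.

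Other stress and cell state genes were counted as well. Shares of all genes follow in the order CTCFL, CTCF, LCL and CLC. In U versus I 14.3%, 14.8%, 14.1% and 12.7% rose and 16%, 16.1%, 14.3% and 14.5% fell. In U versus D 12.4%, 1.47%, 5.15% and 0.73% rose and 12.6%, 3.23%, 6.2% and 0.887% fell. In I versus ID 13.2%, 10.1%, 16.2% and 3.68% rose and 16.6%, 15.5%, 16.8% and 1.81% fell. Some counts below lie near these shares, such as that of stress genes that rose in U versus I of the CTCFL line. Of 15 genes of the integrated stress response, a list that also holds Sesn2, 2, 0, 3 and 4 rose and 5, 11, 3 and 3 fell in U versus I of the CTCFL, CTCF, LCL and CLC lines. In CLC Ddit4 rose by 2.31, Atf3 by 1.71 and Cebpb by 1.56, and Chac1 fell by 1.72, whereas in the CTCF line the changes were -3.18 for Slc7a11, -2.34 for Chac1 and -1.57 for Mthfd2. On Dox beside CTCF 3, 1, 2 and 2 rose and 2, 5, 2 and 0 fell, with Ddit3 at 2.21 and Atf3 at 1.15 in the CTCFL line, and in I versus ID 7, 11, 6 and 3 rose and 1, 0, 4 and 0 fell. Of 15 mitosis genes, 3, 6, 1 and 0 rose and 0, 1, 2 and 3 fell in U versus I of the 4 lines. Of 13 pluripotency markers, 0 rose and 10, 6, 5 and 6 fell in U versus I, and 0, 0, 1 and 0 rose and 7, 1, 0 and 1 fell in U versus D.

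The summed level of the pluripotency markers in the CTCFL line was 202899 to 221831 in U, 155264 to 159180 in I, 151767 to 160253 in D and 111541 to 116949 in ID. In the CTCF line it was 232703 to 244992 in U and 163199 to 182027 in I, in LCL 298272 to 306200 in U and 259478 to 267002 in I, and in CLC 348782 to 351685 in U and 267332 to 270522 in I. Of the markers of other cell types, 16, 16, 14 and 12 were tested. In U versus I 4, 5, 2 and 3 of them rose, against 14.3%, 14.8%, 14.1% and 12.7% of all genes. There 2, 1, 3 and 1 fell, against 16%, 16.1%, 14.3% and 14.5%. The summed level of the 18 such markers was 8615 to 9214 in U, 10224 to 10534 in I and 6958 to 7464 in D of the CTCFL line, 9726 to 10042 in U and 10464 to 11226 in I of the CTCF line, 7576 to 7790 in U and 6524 to 7220 in I of LCL, and 7812 to 7885 in U and 7409 to 8557 in I of CLC. The pluripotency sum was thus lower in I than in U in every line. In the CTCF line it was 235607 to 248403 in D and 162180 to 165763 in ID. LCL had it at 342928 to 346735 in D and 264188 to 270203 in ID, and CLC at 344571 to 354288 and 299881 to 306003. In D it was thus below U in the CTCFL line, above U in LCL, and overlapped U in the CTCF line and CLC. In ID it was below I in the CTCFL line, above I in CLC, and overlapped I in the others. The part of these markers in the members' changes was not tested. In such bulk samples, a change of RNA per cell and a change in the share of cells of a kind cannot be told apart.

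FLAG ChIP-seq of the transgenic proteins shows where each was found near the members. Peaks of the 2 replicates were joined, and a region counted as a site where both contributed, and a promoter site has its middle within 3000 bases of an annotated start. The CTCFL protein had a site at 14 of 33 member promoters in D and 12 in ID, against 41.9% and 39.5% of all genes tested. CTCF had one at 14 and 12, against 38.1% and 29.9%, LCL at 15 and 17, against 39.2% and 50.2%, and CLC at 4 and 9, against 9.51% and 26.3%. These shares (42.4% and 36.4%, 42.4% and 36.4%, 45.5% and 51.5%, 12.1% and 27.3%) lie near those of all genes, so that having a site is not particular to the members. In 1 replicate alone, CTCFL D had sites at 24 members without replicate 2 and CLC ID at 14 without replicate 2.

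Sites of all 4 proteins in both conditions stood at Trp53, Trp73, Mdm2 and Cdkn1a. At Trp73 these sites were not at the same place. Those of CTCFL, CLC and LCL D lay at the CTCFL D site (chr4:154095223-154096399). Those of CTCF and LCL ID lay at the CTCF D site (chr4:154082758-154083575). Bbc3 lacked a site in CLC D alone of the 8 groups. At Mdm2 the middle of the site lay 6 bases from a start in CTCFL D (chr10:117709972-117711467, fold enrichment over background of 6.43 and 7.08 in the replicates), and in all 8 groups the site covered the half-site window printed above. At Cdkn1a it lay 1852 bases from the nearest start (chr17:29094791-29096475, 5.99 and 7.06), over the core match printed above. At Trp53 it lay 689 bases away (chr11:69578777-69580563, 6.54 and 9.71), and at Bbc3 close to it (chr7:16309695-16310813, 3.52 and 5.25), again over the printed matches.

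Only the site nearest to a start was kept for each gene and protein in each condition. These sites of CTCFL and CTCF were at different places at Plk2, Ak1 and Trp73, and at Pidd1 in D. A further CTCFL site at the CTCF place would not appear here. At Plk2 the CTCFL D site (chr13:110394311-110395218) had its middle 282 bases from the start and the CTCF D site (chr13:110391882-110392982) 2614 bases away, and at Ak1 the CTCFL D site (chr2:32627525-32628170) lay 542 bases and the CTCF D site (chr2:32631228-32632542) 2364 bases from a start. The LCL site kept was at the nearer place at Plk2 and at the farther place at Ak1. Within 1000 bases, CTCFL had sites at 12 and 10 members in D and ID, against 32.6% and 28.8% of all genes, and CTCF at 7 and 5, against 22.5% and 16.4%. LCL had them at 9 and 11, against 26% and 37.5%, and CLC at 2 and 4, against 5.3% and 17.2%, so that these shares too lay near those of all genes.

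No site of any of the 4 proteins, in D or ID, stood at 13 members, near the 39.5% of all genes without one: Plk3, Btg2, Gtse1, Pmaip1, Fas, Tnfrsf10b, Apaf1, Ei24, Phlda3, Sesn2, Ddit4l, Rrm2b and Xpc. Ddit4l, Plk3, Btg2, Phlda3 and Ei24 of these rose in U versus I in all 4 lines, and Ddit4l rose past 1 on the log2 scale with CTCFL. Ccng1, Plk2, Bbc3 and Ak1, which had a site, rose in all 4 lines too. The share of all genes without a site that rose in this way was not computed. The sites are those of transgenic proteins with Dox, and binding of endogenous CTCF, which U versus I concerns, was not examined. The core consensus matched in 3 of 14 CTCFL D member sites, against 28% of all 22294 CTCFL D sites, and in 3 of 14 CTCF D member sites, against 24.7% of 37154.

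**Figure D5:**
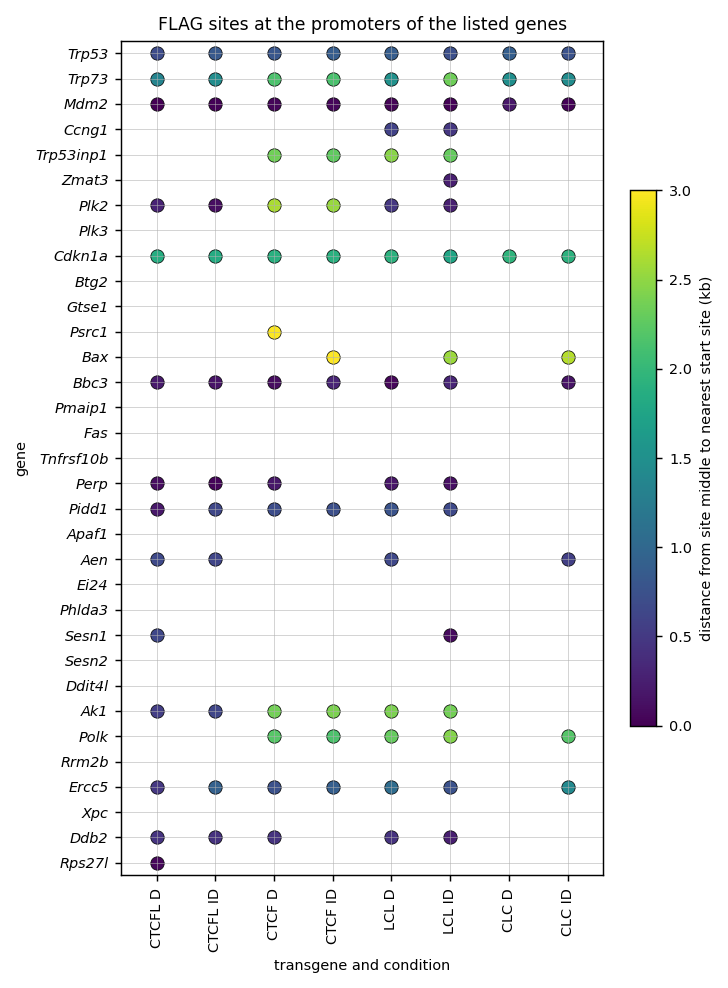
The FLAG site nearest to a start (point), within 3 kb, of each listed gene (rows) for each transgene in D and ID (columns), colored by the distance in kb from the middle of the site to the nearest start. Trp53, Trp73, Mdm2 and Cdkn1a carry a point in all 8 columns, Plk2 and Ak1 change color between CTCFL and CTCF, and 13 rows are empty.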

How the data were processed

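The members and lists were chosen with earlier results of these data known. RNA-seq reads had been mapped with STAR to GRCm38/mm10, and the submitters' processing notes also name Trim Galore 0.4.4, Bowtie2, SAMtools 1.3, HTSeq and deepTools. The deposited signal values are counts per gene, scaled by the authors with the size factor of each library and then rounded. What counted the reads, and whether strand was used, is not given in the sources used here. In 36 of 38 libraries all values up to 500 reads were multiples of 1 step (tolerance 0.1), and reads were recovered. CTCFL I replicate 2 and CTCFL ID replicate 2 had none recovered and were left out of tests on reads.

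In R 4.3.3, limma 3.58.1 (eBayes with trend) was fitted to log2(value + 1), once per line over U, I, D and ID, for genes with a mean of at least 10 in the line (16840.0 in CTCFL, 16705 in CTCF, 15274 in LCL, 15337 in CLC). Fold changes understate those of low genes. Differences of effect came from 1 fit of 38 libraries and 16480.0 genes. P-values were adjusted by Benjamini-Hochberg over all genes tested. Named genes were all members, with every library given for Trp53, Cdkn1a, Mdm2 and members called past 1 on the log2 scale, and from other lists up to 4 genes past it per comparison. Alternatives were a pseudocount of 5, no filter, a mean of at least 50, TMM rescaling, 2 groups alone, all lines in 1 fit, a replicate block, edgeR 4.0.16 (quasi-likelihood), DESeq2 1.42.0 and each library left out. The scripts were tested on simulated data.

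In the 25 pairs of replicates with recovered reads, none agreed within sampling noise. The chi-square per gene was lowest for CLC U, at 1.36, and highest for CLC I, at 47.85. Cop1 was read under its older symbol Rfwd2.

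For FLAG ChIP-seq, the authors called peaks per replicate with MACS. The fold enrichment (a ratio) and -log10 q values are as deposited, and the depth of these libraries is unknown. Start sites came from GENCODE vM21, and sequences were read with samtools 1.23.1. RAD21, Hi-C and other ChIP-seq files were not used here.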

Additional observations from a re-analysis of the deposited data

Results flagged for a closer look

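Results are listed here because the effect of a treatment differed between 2 lines, by an interaction test at an adjusted p below 0.01 (limma, over all genes tested). Values are differences of log2 fold changes, the first line minus the second.

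For CTCF loss (U versus I), CLC minus the CTCFL line gave 1.57 for Trp73, 0.57 for Mdm2, 1.20 for Plk2, 1.13 for Cdkn1a, 0.81 for Btg2, 0.75 for Psrc1 and 1.22 for Bbc3. It gave 0.92 for Pmaip1, 0.83 for Tnfrsf10b, 0.59 for Perp, 0.85 for Apaf1, 1.04 for Phlda3, 0.89 for Ddit4l and 0.56 for Ak1. LCL minus the CTCFL line gave 0.91 for Trp73, 0.68 for Mdm2, 0.48 for Plk2, 0.89 for Cdkn1a, 0.79 for Bbc3, 0.63 for Tnfrsf10b and -0.58 for Ercc5. The CTCF line minus the CTCFL line gave 0.51 for Cdkn1a.

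For Dox beside CTCF (U versus D), the CTCFL line minus the CTCF line gave -0.48 for Trp53, 0.68 for Mdm2, 0.99 for Plk2, 0.51 for Plk3, 0.45 for Gtse1, 0.41 for Sesn2 and 0.43 for Ak1. LCL minus the CTCF line gave 0.90 for Trp73, -0.92 for Plk2, -0.65 for Btg2, -1.12 for Bbc3 and -0.77 for Sesn1. CLC minus the CTCF line gave 1.49 for Trp73, -0.46 for Btg2, 0.79 for Apaf1 and -0.85 for Sesn1.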

How the results depend on the processing

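Of 2837 recomputed values of called members, 2502 kept their call, 335 lost it and 0 changed direction. Called members in I versus ID of the CTCFL line (13) numbered 6 in edgeR, 6 in DESeq2, 4 without both libraries that had no recovered reads (an alternative chosen after seeing the data) and 6 to 11 with 1 library left out. In U versus D of the CTCF line (7) they numbered 3 with a replicate block, 3 with the 2 groups alone and 1 to 5 with a library left out. In U versus D of CLC (2) they numbered 1 without a filter, 1 with a replicate block, 11 in DESeq2, 16 with the 2 groups alone, 12 with all lines in 1 fit and 0 without any library. In I versus ID of CLC (8) they numbered 4 with a replicate block, 0 with the 2 groups alone, 14 with all lines in 1 fit and 2 to 10 with a library left out. With a library left out, counts were 4 to 6 in I versus ID of the CTCF line (7), 4 to 7 and 10 to 16 in U versus D and I versus ID of LCL (8 and 17) and 14 to 23 in U versus I of CLC (22). Counts of differing effects were 0 to 2 for CTCF against CTCFL in U versus I (1), and for U versus D 4 to 8 for CTCFL (7), 3 to 5 for LCL (5) and 2 to 4 for CLC (4) against CTCF, the CLC count being 2 with a replicate block. The causes were not tested. Libraries with equal replicate numbers had correlations of their deviations from -0.555 to 0.331. No comparison with 3 or more pairs had all above 0.1. Most comparisons had fewer pairs, so that a pairing or a batch could not be judged there.

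With a window of 1 kb, promoter sites were found at 12 and 10 members for CTCFL D and ID, 7 and 5 for CTCF, 9 and 11 for LCL and 2 and 4 for CLC. In 1 replicate alone they numbered 14 to 24 for CTCFL D and 10 to 14 for CLC ID. Groups of 2 or 3 libraries limit what could pass the test.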
